A study of Mus musculus with 4 samples.

Results

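The 34 genes described here keep mitochondria in working order and set how many are made. They were taken by gene name from a table of 56493 genes, and every one of the 34 was found there as a single row. By function they comprise 4 chaperones, 7 proteases, 2 prohibitins, 3 genes of membrane fusion, 3 of fission, 4 of mitophagy, 4 regulators of biogenesis and 7 genes that copy and transcribe mitochondrial DNA (mtDNA). Their RNA was read by sequencing cells that had been sorted from wild-type mouse retina and carry the label RGC, for retinal ganglion cells, which send their axons through the optic nerve to the brain. In the CrAT group (2 libraries) the eye had received AAV2-CrAT, an adeno-associated virus vector for carnitine acetyltransferase, in the vitreous. In the MCS group (2 libraries) it had received AAV2-MCS, a name the labels do not spell out. In all 4 libraries the optic nerve was crushed about a month after the vector, so the comparison sets CrAT against MCS within injured eyes only. The titles of all 4 also carry NCd8, a code that the titles do not spell out. The labels leave out the vector's promoter, the sorting gate, and the strain, age and sex of the mice. They do not say either that replicates are separate animals, and the p-values therefore reflect only how far these samples spread, which may be technical.

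Depth was 24494253 to 27097438 counts per library, and the 34 genes had between 133 counts (Tfb1m in MCS replicate 1) and 13100 counts (Bnip3 in CrAT replicate 2), so all of them passed the filter on low counts. Crat itself was at 72.5 and 49.9 CPM (counts scaled to library size) in CrAT replicates 1 and 2 and at 38.3 and 47.7 CPM in the MCS replicates, a log2 fold change of 0.51 (SE 0.33). Ganglion cell markers varied widely. Tubb3 had 1453 and 3833 counts in CrAT against 1477 and 3214 in MCS, Nefl 812 and 1904 in CrAT against 532 and 1335 in MCS, and Slc17a6 30 and 510 in CrAT against 6 and 153 in MCS. Lower were the more restricted markers: Pou4f2 had 0 counts in 3 of the 4 libraries, and Rbpms had 100 and 73 counts in CrAT against 87 and 237 in MCS. Pou4f1 had 0 and 20 in CrAT against 1 and 15 in MCS, where a count of 0 allows up to 0.122 CPM. Of 12 ganglion cell markers 10 were tested, 8 of them with a positive log2 fold change and a median of 0.56. The 10 summed to 270.3 and 415.6 CPM in CrAT against 207.5 and 307.3 CPM in MCS, most of it from Isl1, Tubb3 and Nefl. Isl1 had 3035 and 2095 counts in CrAT against 2232 and 1487 in MCS. Rod markers, 10 genes, summed to 47417 and 25417 CPM in CrAT against 46035 and 27334 CPM in MCS. That is far above the ganglion cell sum in every library, so levels of the members cannot be assigned to ganglion cells alone. Mueller glia markers stood lower in CrAT: the sum over 10 of them was 8237 and 6393 CPM in CrAT against 13437 and 11963 CPM in MCS, and all 10 had a negative log2 fold change, with a median of -0.95. Amacrine markers, 825.7 and 2325 CPM in CrAT against 702.3 and 1472 CPM in MCS, followed the replicate number, with 7 of 8 higher in replicate 2 of both groups. Markers of other cell types followed it to different degrees. In replicate 2 of both groups all 10 rod and 8 of 10 Mueller glia markers were lower. Of the 10 ganglion cell markers tested, 7 were higher there and 2 lower. Of 7 cone markers 0 were higher there and 3 lower. Of 8 bipolar markers 2 were higher and 4 lower, and of 6 microglia markers tested 2 were higher and 1 lower. Endothelial markers (4 of 5 tested) summed to 350.0 and 283.7 CPM in CrAT against 594.6 and 206.5 CPM in MCS, nearly all of it from Kdr, while Cdh5 was at 0 in every library. Pigment epithelium markers (3 of 5 tested) summed to 22.45 and 11.99 CPM in CrAT against 16.37 and 19.56 CPM in MCS, with Rpe65 at 0 in every library. In such bulk samples fewer cells of a type and less RNA per cell cannot be told apart.

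Nearly all mitochondrial proteins are encoded in the nucleus, imported unfolded, and folded in the matrix by chaperones, while proteases of the matrix and inner membrane remove damaged proteins. Mitochondria join and divide through large GTPases, and damaged ones are taken up by autophagosomes through mitophagy. New mitochondria need the coactivators of the PGC-1 family, the transcription factors they bind, and enzymes that copy and transcribe the mtDNA. Neurons of the retina depend heavily on this upkeep, and ganglion cells are the cells lost in human optic atrophy caused by mutations of OPA1.

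No member passed the test between CrAT and MCS (edgeR quasi-likelihood test, adjusted p = 1 for each), and neither did any other of the 19638 genes tested, so 0% of all genes were called. DESeq2 called 0.275% of all genes and 0 members. One member, Polg, had an unadjusted p under 0.05, on the lower side, as did 2.87% of all genes (1.28% on the higher side, 4.15% in all). In DESeq2 it was again Polg alone, against 4.57% of all genes. Which members fell under 0.05 varied with other settings of the fit, as given in the closing section for fits on all 4 libraries. The differences of the members were small, and in simulated counts the same test called only 1 of 50 genes changed 2-fold. A positive log2 fold change, CrAT over MCS, was found for 24, or 70.6%, against 50.6% of all genes, and a negative one for 10. With library totals as the only scaling, which shifts the median of all genes by -0.052, these counts were 20 and 14. Their median was 0.13, against 0.0075 for all genes. The extremes were 0.88 for Opa1 and -0.81 for Polg. In 13 members, or 38.2%, the lower CrAT library exceeded the higher MCS library, which held for 15.0% of all genes tested. The CrAT libraries were both below the MCS libraries for 4 members, or 11.8%, against 16.6% of all genes. These genes share the same 4 libraries and are not independent of each other. The summed level of the members was 3974 and 4050 CPM in CrAT against 3541 and 3399 CPM in MCS. The median of the members changed with single libraries. It was 0.055 without CrAT replicate 1, 0.25 without CrAT replicate 2 and 0.33 without MCS replicate 1. Leaving out CrAT replicate 1 left 19 members above 0, and leaving out MCS replicate 1 left 23.

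**Figure D1:**
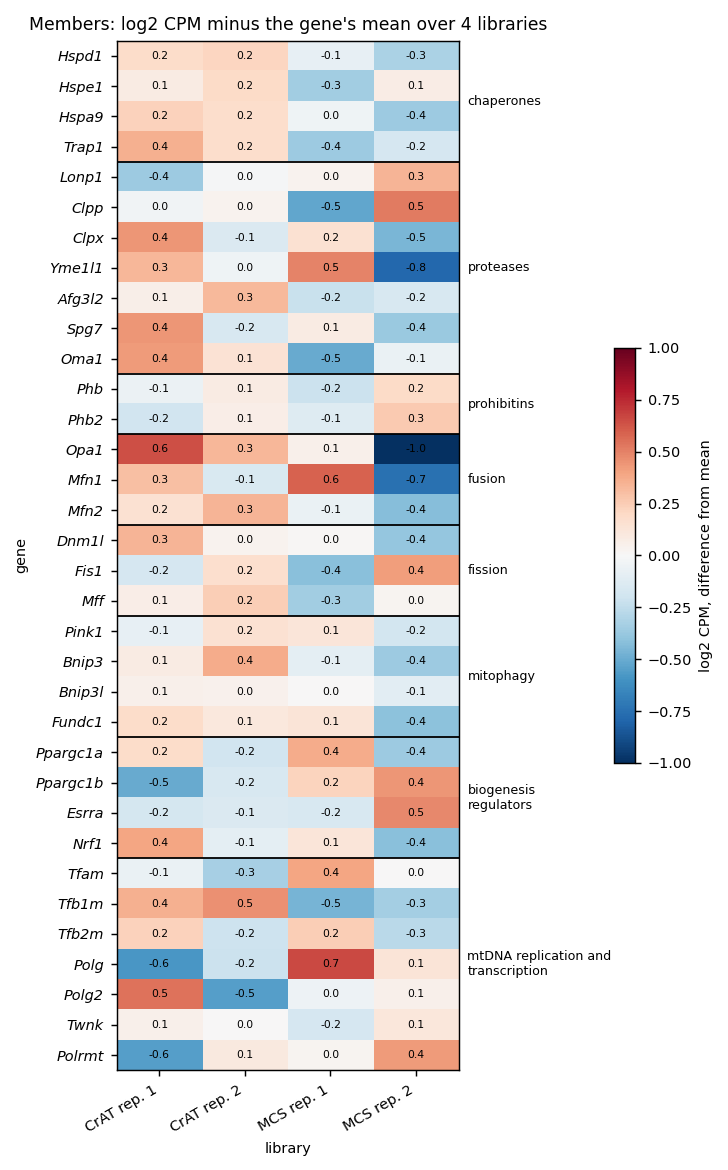
Level of each of the 34 genes (rows, grouped by function) in each library (columns), as log2 CPM minus the mean of the gene over the 4 libraries. The 4 chaperones are higher in both CrAT libraries than in either MCS library, and MCS replicate 2 holds the lowest value of 16 of the 34 genes.

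The 4 chaperones were the function in which CrAT and MCS libraries parted in every member. Every one of the 4 was higher in each CrAT library than in either MCS library (15.0% of all genes were). Their median log2 fold change of 0.39 ranged from 0.39 to 0.48 when any 1 library was left out. Hspd1 encodes HSP60, the barrel-shaped chaperonin of the matrix, and was at 181.5 and 184.6 CPM in CrAT against 150.8 and 127.9 CPM in MCS. Its lid, HSP10, is encoded by Hspe1, which was at 57.6 and 62.1 CPM in CrAT against 42.8 and 57.4 CPM in MCS, so that the closest libraries nearly met. Hspa9 encodes mortalin, the HSP70 of the matrix that also pulls proteins in, and was at 354.1 and 341.6 CPM in CrAT against 293.1 and 235.6 CPM in MCS. Trap1, an HSP90 of mitochondria, was at 105.6 and 93.0 CPM in CrAT against 64.02 and 73.52 CPM in MCS, the widest gap of the 4 as a ratio. Its group levels were 99.3 ± 8.91 CPM in CrAT against 68.8 ± 6.71 CPM in MCS (SD, n = 2 each), a ratio of 1.44. Its log2 fold change was 0.53 with a 95% interval from -0.14 to 1.20. The intervals of the others also held 0, with log2 fold changes of 0.39 (SE 0.27) for Hspd1, 0.26 (SE 0.30) for Hspe1 and 0.40 (SE 0.29) for Hspa9. Hspe1 was the least stable, at 0.062 without MCS replicate 1 and 0.49 without MCS replicate 2, and Hspa9 was at 0.25 without MCS replicate 2. The table also lists pseudogenes of these genes, of which Hspd1-ps3 had the most counts, 162 and 174 in CrAT against 133 and 120 in MCS. The sources used here do not say how reads shared with such copies were divided.

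Hspd1 and Hspe1 lie head to head on mouse chromosome 1, and the region between them is shown because it faces both chaperonin genes. In RefSeq on GRCm38.p6 the start of Hspe1 at 55088148 on the plus strand and one of the starts of Hspd1, at 55087932 on the minus strand, are 216 bases apart. The window of Hspe1, chr1:55087898-55088197 on the plus strand, holds the letters GAANNTTC, the core of a heat shock element, printed in capitals, with the first letter at position -84 from its start. The same letters, from 55088064 to 55088071, lie at -139 from that start of Hspd1.
Hspe1: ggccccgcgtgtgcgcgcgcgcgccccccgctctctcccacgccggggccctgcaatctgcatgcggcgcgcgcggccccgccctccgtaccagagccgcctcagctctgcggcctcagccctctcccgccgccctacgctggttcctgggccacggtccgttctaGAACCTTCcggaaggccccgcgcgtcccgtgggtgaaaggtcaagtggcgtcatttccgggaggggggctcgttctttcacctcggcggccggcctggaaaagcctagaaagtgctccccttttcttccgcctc
The 2 genes also share 112 exon bases on opposite strands in the deposited table, 4.24% of the exons of Hspd1 and 7.6% of those of Hspe1. Since the library kit does not mark the strand, reads there cannot be told apart. Per exon length Hspe1 stood at 0.569 and 0.603 of the Hspd1 level in CrAT and at 0.509 and 0.804 in MCS, as ratios of the FPKM values (counts scaled to library size and exon length) that the authors deposited.

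The 7 proteases differed in sign. A positive log2 fold change was found for 5 and a negative one for 2, with a median of 0.30. Leaving out CrAT replicate 1 gave a median of -0.031, and leaving out MCS replicate 2 one of 0.092. Of the 7 only Lonp1 was lower in each CrAT library than in either MCS library, and only Afg3l2 and Oma1 were higher in each (16.6% and 15.0% of all genes). Lonp1, the matrix protease that degrades oxidised proteins, was at 42.6 and 54.2 CPM in CrAT against 55.9 and 69.0 CPM in MCS, a log2 fold change of -0.37 (SE 0.30). The ClpXP protease is built from a peptidase, Clpp, and an unfolding ATPase, Clpx. Clpp was at 161.0 and 169.8 CPM in CrAT, inside the range of the MCS libraries at 115.2 and 237.3 CPM. Clpx was at 152.0 and 101.3 CPM in CrAT against 124.2 and 81.6 CPM in MCS, with replicate 1 the higher in each group. The FPKM ratio of Clpp to Clpx was 3.03 and 4.79 in CrAT and ran from 2.65 to 8.31 within MCS alone.

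The proteases of the inner membrane include the m-AAA enzyme, made of the products of Afg3l2 and Spg7, the i-AAA enzyme Yme1l1 and the stress-activated Oma1. Oma1 and Yme1l1 both cut the fusion protein OPA1. Oma1 was at 22.5 and 18.5 CPM in CrAT against 11.8 and 15.9 CPM in MCS, which is 1.48-fold, with a log2 fold change of 0.56 and a 95% interval from -0.32 to 1.44. Yme1l1 was at 64.2 and 49.7 CPM in CrAT, between MCS replicate 1 at 72.0 and MCS replicate 2 at 29.7 CPM. Its log2 fold change of 0.16 (SE 0.46) was -0.33 without MCS replicate 2, -0.031 without CrAT replicate 1 and 0.94 without MCS replicate 1. Afg3l2 was at 81.1 and 97.7 CPM in CrAT against 67.0 and 69.9 CPM in MCS, a log2 fold change of 0.39 (SE 0.28). Spg7, mutated in a human spastic paraplegia, was at 151.4 and 99.8 CPM in CrAT against 118.2 and 86.3 CPM in MCS. Its replicate 2 was lower in both groups, so the FPKM ratio of Spg7 to Afg3l2 was 4.08 and 2.23 in CrAT against 3.85 and 2.697 in MCS.

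The prohibitins, Phb and Phb2, form a ring in the inner membrane that holds proteases and lipids in place, and their products assemble in equal parts. Phb was at 109.8 and 121.1 CPM in CrAT against 98.8 and 130.3 CPM in MCS, and Phb2 at 78.2 and 93.5 CPM in CrAT against 82.0 and 107.0 CPM in MCS. In both genes replicate 2 was the higher of each group, and the libraries of the groups overlapped. The log2 fold changes were 0.011 (SE 0.29) for Phb and -0.14 (SE 0.29) for Phb2. The FPKM ratio of Phb to Phb2 varied little, at 1.86 and 1.72 in CrAT, both above 1.60 and 1.61 in MCS.

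Among the fusion genes Opa1 had the largest log2 fold change, also of the 34 members, and Mfn2 the next, while the libraries of the groups overlapped for Mfn1. Opa1 encodes the GTPase that fuses inner membranes and shapes cristae. It was at 91.6 and 73.7 CPM in CrAT against 60.8 and 29.0 CPM in MCS, so the groups did not overlap, but the MCS libraries themselves lay further apart than CrAT replicate 2 and MCS replicate 1. The group levels were 82.7 ± 12.6 CPM in CrAT against 44.9 ± 22.5 CPM in MCS (SD, n = 2 each), or 1.84-fold. The log2 fold change of 0.88 had a 95% interval from -0.13 to 1.89 (edgeR, unadjusted p = 0.0761, adjusted p = 1). It was 0.45 without MCS replicate 2 and 1.51 without MCS replicate 1. Mfn2, a mitofusin of the outer membrane that also ties mitochondria to the endoplasmic reticulum, was at 241.7 and 275.0 CPM in CrAT against 206.8 and 161.4 CPM in MCS, a log2 fold change of 0.49 (SE 0.29). Its paralogue Mfn1 was at 46.0 and 33.6 CPM in CrAT, within the MCS range of 56.2 and 22.2 CPM. Mfn2 was the more abundant mitofusin in every library, with an FPKM ratio to Mfn1 of 6.19 and 9.64 in CrAT against 4.33 and 8.57 in MCS.

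The promoter window of Opa1, the member with the largest positive difference, is shown because it carries the letters bound by NRF1, a regulator of biogenesis that is itself a member. It lies at chr16:29579084-29579383 on the plus strand of GRCm38.p6 (RefSeq), and the capitals mark 2 overlapping matches to GCGCANGCG, one on each strand, with first letters at -59 and -58 from the start.
Opa1: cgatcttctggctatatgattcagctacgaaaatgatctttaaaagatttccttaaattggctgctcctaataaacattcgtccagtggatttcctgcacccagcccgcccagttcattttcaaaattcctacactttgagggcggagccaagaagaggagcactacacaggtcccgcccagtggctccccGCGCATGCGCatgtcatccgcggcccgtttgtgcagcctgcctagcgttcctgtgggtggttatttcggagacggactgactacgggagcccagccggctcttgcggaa

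Of the fission genes, 2 of 3 were higher in each CrAT library than in either MCS library, as were 15.0% of all genes tested. Dnm1l encodes DRP1, the GTPase that constricts mitochondria, and was at 153.9 and 125.0 CPM in CrAT against 122.5 and 93.0 CPM in MCS, with CrAT replicate 2 and MCS replicate 1 almost level. Mff, its receptor on the outer membrane, was at 300.0 and 340.0 CPM in CrAT against 224.7 and 291.8 CPM in MCS. The log2 fold changes were 0.37 (SE 0.30) for Dnm1l and 0.31 (SE 0.30) for Mff. Fis1, another outer membrane protein of fission, was at 171.0 and 214.8 CPM in CrAT and spread more widely in MCS, at 143.5 and 256.2 CPM.

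**Figure D2:**
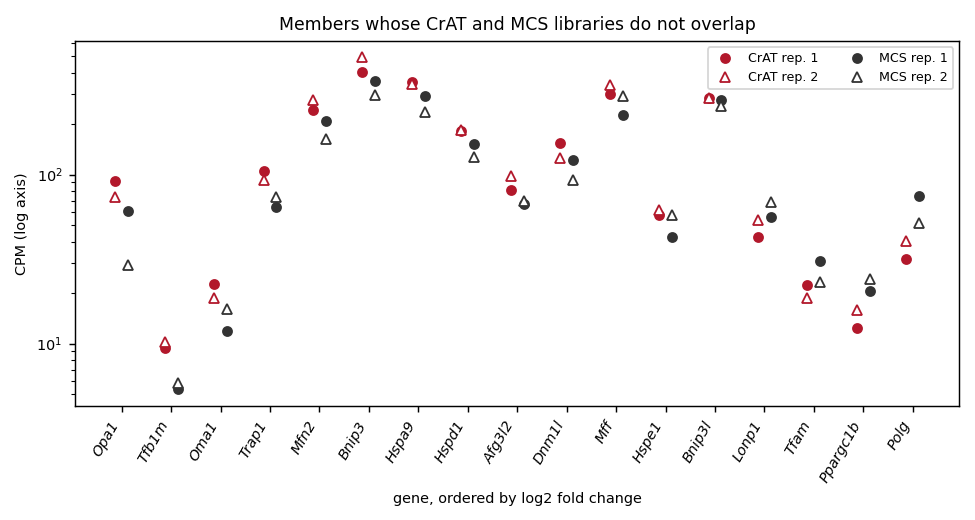
CPM (log axis) in each library for the 17 members whose CrAT and MCS libraries did not overlap, ordered by log2 fold change; red symbols are CrAT and black ones MCS, filled circles replicate 1 and open triangles replicate 2. The gaps between groups are narrow for most genes, and for Opa1 the distance between the MCS libraries exceeds the gap to CrAT.

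Bnip3 had the highest mean level of the set per exon length. This gene, an outer membrane receptor of mitophagy induced by lack of oxygen, had 172.7 and 216.6 FPKM in CrAT and 159.8 and 133.6 FPKM in MCS. The log2 fold change was positive in all 4 mitophagy genes, and its median of 0.18 was 0.39 without MCS replicate 1 and 0.035 without MCS replicate 2, the library in which all 4 were lowest. In CPM Bnip3 was at 403.4 and 494.1 in CrAT against 356.4 and 296.9 in MCS, a log2 fold change of 0.46 (SE 0.30). Its paralogue Bnip3l, also called NIX, was nearly level at 283.9 and 282.2 CPM in CrAT against 274.9 and 254.1 CPM in MCS, a log2 fold change of 0.098 with a 95% interval from -0.57 to 0.77. The FPKM ratio of Bnip3l to Bnip3 was 0.413 and 0.335 in CrAT, below 0.453 and 0.502 in MCS. Both values of this pair carry limits of the counting. A long noncoding gene, Gm45507, shares 504 bases with Bnip3 on the opposite strand, 22.3% of the exons of Bnip3, and was given 4785 and 5929 counts in CrAT against 3984 and 3823 in MCS, and the pseudogene Bnip3l-ps was given 543 to 581 counts per library.

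Pink1 and Fundc1 did not part by group. Pink1, the kinase that accumulates on damaged mitochondria and recruits Parkin, was at 273.0 and 321.4 CPM in CrAT against 314.8 and 254.3 CPM in MCS. Its log2 fold change was 0.063 (SE 0.30). Fundc1, a mitophagy receptor that responds to lack of oxygen, was at 88.0 and 83.4 CPM in CrAT against 84.5 and 58.2 CPM in MCS. Only MCS replicate 2 stood lower than the other 3 libraries there.

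The regulators of biogenesis stood at 3.01 to 7.69 FPKM over the 4 genes and 4 libraries. Their mean FPKM ranked between percentiles 55.39 (Ppargc1b) and 60.68 (Nrf1) of all genes tested. The log2 fold change of 3 of 4 was negative. The median was -0.20, at -0.29 when CrAT replicate 1 was left out and -0.10 when CrAT replicate 2 was. Ppargc1b, which encodes the coactivator PGC-1beta, was at 12.4 and 15.8 CPM in CrAT against 20.6 and 23.9 CPM in MCS. Both CrAT libraries were the lower ones, at a ratio of 0.634, with a log2 fold change of -0.66 and a 95% interval from -1.51 to 0.19. Ppargc1a, for the better known coactivator PGC-1alpha, was at 40.3 and 31.2 CPM in CrAT against 46.0 and 27.7 CPM in MCS, with replicate 1 higher in both groups. The FPKM ratio of Ppargc1b to Ppargc1a spread as widely between replicates as between groups, at 0.509 and 0.838 in CrAT against 0.739 and 1.43 in MCS. Esrra, the nuclear receptor ERR-alpha that PGC-1 proteins bind, was at 21.1 and 21.6 CPM in CrAT against 21.4 and 33.3 CPM in MCS, so only MCS replicate 2 stood apart. Nrf1, which activates many nuclear genes of respiration, was at 77.1 and 54.7 CPM in CrAT against 63.9 and 43.9 CPM in MCS, a log2 fold change of 0.29 (SE 0.34). That value was 0.023 without CrAT replicate 1, 0.54 without CrAT replicate 2, 0.59 without MCS replicate 1 and 0.050 without MCS replicate 2.

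The 7 genes that copy and transcribe mtDNA differed in sign, with a median log2 fold change of 0.016 that was -0.22 without CrAT replicate 1, -0.078 without MCS replicate 1 and -0.21 without MCS replicate 2. Polg and Tfam were lower in both CrAT libraries than in both MCS libraries, as were 16.6% of all genes tested. Tfb1m was higher in both, as were 15.0% of all genes tested. Polg encodes the catalytic subunit of the mtDNA polymerase. It was at 31.5 and 40.5 CPM in CrAT against 74.4 and 51.5 CPM in MCS, with CrAT replicate 2 and MCS replicate 2 the closest. The group levels were 36.0 ± 6.37 CPM in CrAT against 63.0 ± 16.2 CPM in MCS (SD, n = 2 each), a ratio of 0.572. The log2 fold change of -0.81 had a 95% interval from -1.61 to -0.0060 (edgeR, unadjusted p = 0.0488, adjusted p = 1), and it was -0.52 without MCS replicate 1. In the deposited table Polg shares 921 bases, 8.57% of its exons, with Fanci on the opposite strand, which had 116 and 130 counts in CrAT and 189 and 266 counts in MCS. The accessory subunit of the polymerase, Polg2, was at 46.3 and 21.7 CPM in CrAT against 30.8 and 33.0 CPM in MCS, so the 2 CrAT libraries lay on either side of the MCS libraries. Its log2 fold change was -0.55 when CrAT replicate 1 was left out and 0.56 when CrAT replicate 2 was. The FPKM ratio of Polg2 to Polg was 3.62 and 1.32 in CrAT against 1.02 and 1.58 in MCS.

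The promoter window of Polg, the member with the largest negative difference, is printed as well. Both Opa1 and Polg were picked by their log2 fold changes in these data. Whether such letters go with the direction of a difference was not tested. The Polg window holds no GCGCANGCG. It has 1 match to CCGGAAGT, the letters of ETS factors such as GABPA, in capitals, with the first letter at -38 from the start. The window is chr7:79466224-79466523 on the minus strand of GRCm38.p6 (RefSeq).
Polg: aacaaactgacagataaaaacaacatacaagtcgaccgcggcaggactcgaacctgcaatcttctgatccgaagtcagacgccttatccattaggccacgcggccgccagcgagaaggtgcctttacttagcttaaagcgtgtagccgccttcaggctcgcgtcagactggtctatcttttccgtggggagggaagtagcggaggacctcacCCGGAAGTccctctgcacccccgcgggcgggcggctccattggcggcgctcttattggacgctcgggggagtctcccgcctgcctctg

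Tfam encodes the protein that packs mtDNA and starts its transcription, and was at 22.2 and 18.5 CPM in CrAT against 30.6 and 23.3 CPM in MCS, a log2 fold change of -0.41 (SE 0.34). Tfb1m, a methyltransferase that modifies the ribosomal RNA of mitochondria, was the least abundant member at 2.54 and 2.79 FPKM in CrAT and 1.499 and 1.646 FPKM in MCS. In CPM it was at 9.47 and 10.2 in CrAT against 5.35 and 5.83 in MCS, with no overlap. The group levels were 9.81 ± 0.480 in CrAT against 5.59 ± 0.341 in MCS (SD, n = 2 each), a 1.75-fold difference from 226 and 269 counts in CrAT against 133 and 161 in MCS. Replicates of Tfb1m stood close to each other in both groups, and its log2 fold change was 0.81 with a 95% interval from -0.14 to 1.76, staying between 0.75 and 0.88 when any 1 library was left out. Of its exon bases 3.93% are shared with Tiam2 and 6.51% with 1700102H20Rik in the deposited table. Its paralogue Tfb2m, which opens the promoter for the mitochondrial RNA polymerase, was at 31.5 and 23.3 CPM in CrAT against 31.9 and 22.3 CPM in MCS, the same pattern in each group. The FPKM ratio of Tfb2m to Tfb1m was 4.29 and 2.95 in CrAT against 7.69 and 4.94 in MCS. Polrmt encodes that polymerase and was at 26.3 and 41.3 CPM in CrAT against 39.2 and 51.9 CPM in MCS, a log2 fold change of -0.43 (SE 0.36). With CrAT replicate 1 left out it was -0.14, with CrAT replicate 2 left out -0.77, with MCS replicate 2 left out -0.21, and after levelling the libraries over GC content -0.105. Twnk, the mtDNA helicase, was level at 42.2 and 40.9 CPM in CrAT against 36.3 and 44.0 CPM in MCS. It shares 507 exon bases with Mrpl43 on the opposite strand, 12.6% of its own exons.

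**Figure D3:**
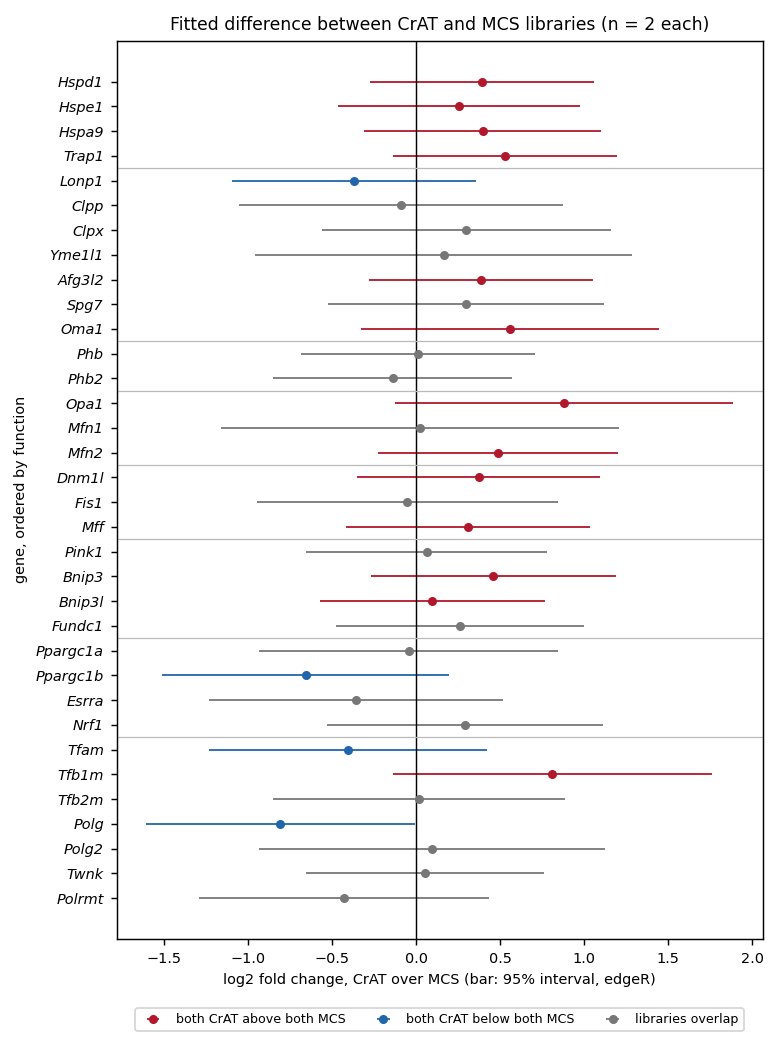
Log2 fold change, CrAT over MCS, of each of the 34 members with its 95% interval from edgeR, ordered by function. The interval holds 0 for every member except Polg, whose upper bound is -0.0060.

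For 22 of the 34 members, or 64.7%, the larger of the within-group differences was wider, on the log2 scale, than the difference between groups, against 80.1% of all genes tested. The MCS libraries were the less alike, with a wider gap between replicates than in CrAT for 27 of 34 members, or 79.4%, against 60.9% of all genes tested. MCS replicate 2 held the lowest value of 16 members, or 47.1%, against 28.3% of all genes, and the highest of 9, or 26.5%, against 28.2%. CrAT replicate 2 held the lowest of 2, or 5.88%, against 21.9% of all genes. Between MCS replicates the members separated by base composition, and the cause was not tested. Of the 17 members with a transcript GC content at or above the median of 51.4%, 13 were higher in MCS replicate 2 than in replicate 1, with Clpp, Fis1 and Esrra at log2 ratios of 1.04, 0.84 and 0.64. Of the 17 below it 3 were, and Mfn1, Yme1l1 and Opa1 had log2 ratios of -1.34, -1.28 and -1.07. Across the 34 members Spearman's rho between GC content and the log2 ratio of replicate 2 to 1 was 0.502 in CrAT and 0.648 in MCS, and across 14783 genes of the same libraries it was 0.36 in CrAT and 0.433 in MCS. These are descriptions over genes that share the same libraries.

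Values for CrAT over MCS varied with base composition too. Spearman's rho of log2 fold change with GC content was -0.466 over the members and -0.236 over 14783 genes. The 17 members of lower GC content included 15 above 0, at a median of 0.30, and the 17 of higher GC content included 9, at a median of 0.011. When each library was first levelled over GC content, an alternative chosen after seeing the data, the median of the members was 0.22 and that of the chaperones 0.33, and the values for Opa1 and Polg were 0.84 and -0.81. The median of the biogenesis regulators then was -0.020, and Esrra, at 0.058, changed sign. Nuclear retained RNA, a sign of how much cytoplasm a sample kept, summed to 493.2 and 548.8 CPM in CrAT against 1483 and 415.0 CPM in MCS. Cytosolic ribosomal protein genes summed to 12366 and 11755 CPM in CrAT against 9058 and 13506 CPM in MCS. MCS replicate 1 stands apart in both sums. It held the lowest value of 10 members, or 29.4%, against 28.7% of all genes. Without it the median of the members was 0.33, against 0.13 with all 4 libraries. The part of RNA quality and of the cell mixture given above in these differences was not tested.

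**Figure D4:**
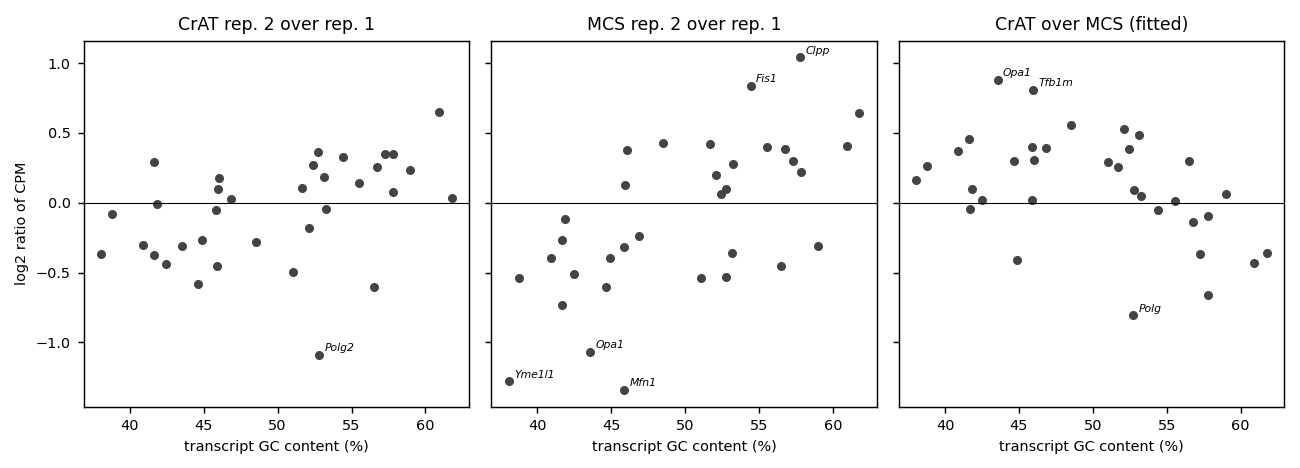
Log2 ratio of CPM against transcript GC content for the 34 members, for CrAT replicate 2 over replicate 1, MCS replicate 2 over replicate 1, and the fitted CrAT over MCS. Ratios between replicates are higher at high GC content in both groups (Spearman's rho 0.502 in CrAT and 0.648 in MCS), and the group difference is lower there (rho -0.466).

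Around the members stand 8 lists of other nuclear genes of mitochondrial upkeep, 225 genes tested, of which none passed (edgeR, adjusted p = 1 for those named here; 3 had an unadjusted p under 0.05, against 4.15% of all genes). The CrAT libraries were both above the MCS libraries for 37 of them, or 16.4%, and both below for 15, or 6.67%, against 15.0% and 16.6% of all genes tested. The mitochondrial ribosome (76 genes) had a median of 0.084, with 46 genes above 0, and protein import (32 genes) had a median of 0.012, with 17 above 0. In MCS replicate 1, 64 of the ribosomal and 22 of the import genes were lowest, and without that library their medians were -0.20 (ribosome) and -0.22 (import). Without MCS replicate 2 they were 0.43 (ribosome) and 0.33 (import). Tomm40, the import pore of the outer membrane, was at 57.1 and 82.3 CPM in CrAT against 84.0 and 148.9 CPM in MCS, and Mrps25, of the small ribosomal subunit, at 163.8 and 55.4 CPM in CrAT against 48.3 and 56.0 CPM in MCS, where CrAT replicate 1 alone was high.

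The list of mtDNA maintenance and expression had 20 of 27 genes above 0 and a median of 0.26. In 10, or 37.0%, the CrAT libraries were both above the MCS libraries, as in 15.0% of all genes. Fastkd2, which processes mitochondrial RNA, was at 28.4 and 26.5 CPM in CrAT against 18.5 and 13.5 CPM in MCS. Lrpprc, which stabilises it, was at 86.5 and 61.5 CPM in CrAT against 59.0 and 39.8 CPM in MCS, with CrAT replicate 2 close to MCS replicate 1. Among 25 shaping and dynamics genes 18 had a positive value, with a median of 0.071. Immt, the core of the complex that holds cristae junctions together, was at 314.2 and 265.9 CPM in CrAT against 188.3 and 165.6 CPM in MCS, a log2 fold change of 0.71 (SE 0.29, unadjusted p = 0.0454 by edgeR), and the groups did not overlap. Gdap1, a fission factor mutated in a human neuropathy, was at 31.6 and 55.6 CPM in CrAT against 25.3 and 24.8 CPM in MCS.

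Genes upstream of biogenesis leaned the other way, with 18 of 24 negative and a median log2 fold change of -0.14 that was 0.19 without MCS replicate 1. The CrAT libraries were both below the MCS libraries for 6 of them, or 25.0%, as for 16.6% of all genes. Yy1, a transcription factor that works with PGC-1alpha, was at 12.02 and 13.50 CPM in CrAT against 22.9 and 31.7 CPM in MCS, a log2 fold change of -1.10 (SE 0.36, unadjusted p = 0.0210 by edgeR). Stk11, the kinase LKB1 that activates AMP-activated protein kinase, was at 20.5 and 24.3 CPM in CrAT against 29.6 and 67.4 CPM in MCS. Medians of the remaining lists were 0.16 for mitophagy adaptors and regulators (20 genes), 0.24 for presequence and other peptidases (11 genes) and -0.013 for co-chaperones and assembly (10 genes). The first was 0.094 without MCS replicate 2, and the second 0.090 without CrAT replicate 1 or MCS replicate 1. The third was -0.15 without MCS replicate 1 and 0.22 without MCS replicate 2. In those 3 lists Nipsnap1, which marks damaged mitochondria for mitophagy, had a log2 fold change of 0.57 (SE 0.32), Pmpca, of the enzyme that removes import presequences, 0.41 (SE 0.29), and Ghitm, an inner membrane protein of cristae, 0.49 (SE 0.30).

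**Figure D5:**
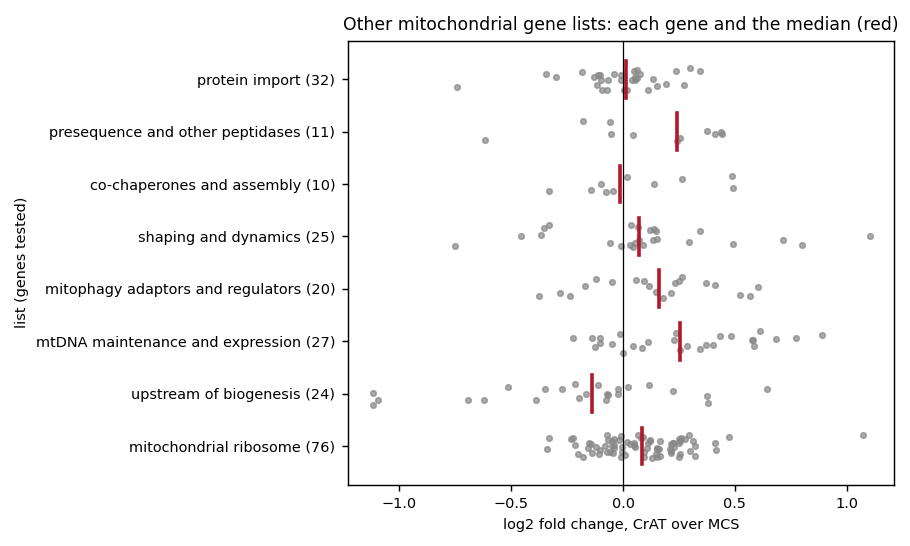
Log2 fold change, CrAT over MCS, of each tested gene in 8 further lists of mitochondrial upkeep, with the median of each list in red and the number of genes in brackets. Medians lie between -0.14 and 0.26, and single genes of most lists fall on both sides of 0.

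Promoter windows of RefSeq on GRCm38.p6, from 250 bases before to 50 after a start, were found for 30 of the 34 members, 38 windows in all. No entry was found for Hspa9, Afg3l2, Bnip3l and Ppargc1b. Letters of 4 motifs were searched on both strands. GCGCANGCG (NRF1) was in 11 of the 38 windows, or 28.9%, against 6.25% of all 32851 windows, and the genes were Hspd1, Clpx, Spg7, Oma1, Phb, Opa1, Pink1, Bnip3, Esrra, Tfb2m and Polrmt. CCGGAAGT (ETS) was in 7 windows, or 18.4%, against 3.89% of all, in Phb2, Mfn1, Fis1, Tfam, Polg and Twnk. GAANNTTC was in the 2 windows of Hspd1 and Hspe1 that face each other, or 5.26%, against 7.86% of all, and TCAAGGTCA (ERR-alpha) was in none, against 0.423% of all. The windows of the members have more G and C, at a median of 60.5%, than all windows, at 52.7%, and the first 2 motifs are themselves rich in G and C. Among the 11 genes with the NRF1 letters the log2 fold change was negative in Esrra and Polrmt and positive in the others. It was close to 0 in Phb (0.011) and Tfb2m (0.016). Of all members 70.6% had a positive value. A match is a description of the sequence and says nothing of whether a factor bound there.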

How the data were processed

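RNA from 4 libraries was analysed, 2 per group, grouped by sample title. Per the labels' protocols, libraries came from the SMART-seq v4 kit, in which strand is lost. STAR 2.7.2b, GRCm38.p6 and mm10 appear in the submitters' processing notes; for the counter and the annotation, these sources state no settings. The authors deposited estimated counts, rounded to whole numbers (they equal FPKM times exon length times library total within 0.5), and FPKM per gene. Coordinates of the tables name no build. Columns of other samples, 4 in all, were not used.

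Counts were filtered with filterByExpr, scaled by TMM (factors 0.970 to 1.02) and tested with edgeR 4.0.16 (quasi-likelihood, robust, R 4.3.3), two-sided, adjusted by Benjamini-Hochberg over 19638 genes, threshold 0.05. The SE is the log2 fold change over the root of F. Plain counts had been assumed in planning; the test did not change. The script was tested on simulated counts with the fitted spread. It called 1 of 50 genes changed 2-fold, 29 of 50 changed 4-fold and 50 of 50 changed 16-fold. It also called 8 unchanged genes. A lack of calls therefore does not show that differences of 2-fold or less are absent. Nor does it show that all 4-fold differences are. The smallest exact permutation p for 2 against 2 is 0.333, so none is given. Replicates differed by more than sampling noise (chi-square per degree of freedom 77.5 in CrAT and 131 in MCS). FPKM was used to compare different genes. GC content is that of the longest coding transcript in GENCODE M21. Limits from a count of 0 (3 counts) cover counting error only.

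The members and lists were chosen with earlier results of these data known. Values in each library are printed, by rule, for the 2 members of each function with the smallest p, members without overlap and partner pairs, and for up to 3 genes per further list with the smallest p and at least 1 log2 CPM; the remaining members, and choices among the further lists, were added after their values were seen. Alternatives were DESeq2 1.42.0, RLE factors, library totals, both filters, the replicate block, each library left out and, added later, an offset for transcript GC content.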

Additional observations from a re-analysis of the deposited data

How the results depend on the processing

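No member was called under any of the 11 alternatives, and 20 of 34 kept the sign of their log2 fold change under all of them, 15 positive and 5 negative. Over all genes DESeq2 called 54 genes (898 at an unadjusted p under 0.05) and the fit without a filter called 2, against 0 in edgeR (815). With the replicate number as a block the count was 0 (1922), the median of the members 0.21, that of shaping and dynamics 0.11 and the value of Polg2 -0.0046. Labels do not say that a number pairs samples. Deviations of same-numbered libraries correlated at 0.390 over all genes and at 0.483 over the members. With the block Opa1 was at 0.97 and Polg at -0.79, against 0.88 and -0.81 in the main fit. Both had an unadjusted p under 0.05 in edgeR with the block, without a filter and with the GC offset. Over all genes 1922 did with the block, 1410 without a filter and 907 with the GC offset. Polg alone did in the main fit, with library totals only and with the stricter filter, and no member did with RLE factors. Over all genes these counts were 815, 875, 708 and 811, in that order. Fits with a library left out are not covered by these statements, since 1 group then holds 1 library. With library totals only the median of the chaperones was 0.34 and that of shaping and dynamics 0.018, and Phb (-0.041), Mfn1 (-0.032), Tfb2m (-0.038) and Twnk (-0.0016) changed sign. With the GC offset the medians were 0.22 for the members, 0.33 for the chaperones and -0.020 for the biogenesis regulators, and Clpp (0.16), Phb2 (0.015), Mfn1 (-0.013), Fis1 (0.034), Esrra (0.058) and Tfb2m (-0.062) changed sign. The cause was not tested. Leaving out each library in turn gave 0 to 0 calls, and medians from 0.055 to 0.33 for the members, 0.39 to 0.48 for chaperones, -0.031 to 0.36 for proteases, 0.035 to 0.39 for mitophagy, -0.29 to -0.10 for biogenesis regulators and -0.22 to 0.093 for mtDNA genes. For the further lists the range was -0.22 to 0.33 for import, 0.090 to 0.32 for peptidases, -0.15 to 0.22 for co-chaperones, 0.035 to 0.25 for shaping, 0.094 to 0.14 for mitophagy adaptors, 0.19 to 0.34 for mtDNA maintenance, -0.41 to 0.19 for genes upstream of biogenesis and -0.20 to 0.43 for the ribosome. Members that changed sign ranged from -0.52 to 0.53 for Clpp, -0.021 to 0.64 for Clpx, -0.33 to 0.94 for Yme1l1, -0.034 to 0.59 for Spg7, -0.17 to 0.23 for Phb, -0.32 to 0.071 for Phb2, -0.49 to 0.85 for Mfn1, -0.41 to 0.43 for Fis1, -0.079 to 0.23 for Pink1, -0.36 to 0.37 for Ppargc1a, -0.64 to 0.0033 for Esrra, -0.22 to 0.30 for Tfb2m, -0.55 to 0.56 for Polg2 and -0.078 to 0.20 for Twnk. Members that kept their sign but moved by over 1.5 times ranged from 0.062 to 0.49 for Hspe1, 0.25 to 0.56 for Hspa9, -0.53 to -0.20 for Lonp1, 0.36 to 0.80 for Oma1, 0.45 to 1.51 for Opa1, 0.33 to 0.68 for Mfn2, 0.19 to 0.59 for Dnm1l, 0.14 to 0.51 for Mff, 0.046 to 0.16 for Bnip3l, 0.023 to 0.56 for Fundc1, 0.023 to 0.59 for Nrf1, -0.59 to -0.19 for Tfam, -1.04 to -0.52 for Polg and -0.77 to -0.14 for Polrmt. The GC offset also moved Lonp1 to -0.20, Bnip3l to 0.0091, Pink1 to 0.28 and Polrmt to -0.105. With 1 library left in a group, it is assumed to vary like the others.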
